A study of Comephorus dybowskii and Comephorus baikalensis and Batrachocottus nikolskii with 4 samples.

Results

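The respiratory chain and ATP synthase make most of the ATP of an oxidative muscle fibre. Of the transcript identifiers with normalized values, 41 carried a title of this machinery in the wording given next, and 751 were not members. Not all of these 751 had a title that was read, and some carried another wording, such as NADH:ubiquinone oxidoreductase subunit. Members were chosen by title alone: an identifier entered when at least 1 of its titles named NADH dehydrogenase [ubiquinone], succinate dehydrogenase, cytochrome b, cytochrome c or ATP synthase. By title, 37 identifiers stood for subunits (15 of complex I, 2 of complex II, 4 of complex III, 6 of complex IV and 10 of complex V), and 4 stood for proteins that assemble or modify these complexes. The authors listed these identifiers, members and others, because they had been called different in at least 1 pair of these same libraries, so every member had to differ somewhere, and no count of differing members is evidence about respiration as a whole.

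Muscle RNA came from 4 sculpin species of Lake Baikal, in 4 libraries, each a pool of fish of 1 species. Comephorus dybowski and Comephorus baicalensis live in the open water (pelagic), and Batrachocottus nikolskii and Batrachocottus multiradiatus live on the bottom (benthic). The fish were wild, sexually mature adults trawled in August, untreated, and the labels state pools of 15 individuals per species, while the methods of the study give larger pools. The question was how life at depth relates to the muscle transcriptome. The 2 species of a genus stood as its samples in each test, so genus, habitat and ancestry cannot be told apart. These pooled libraries do not measure the spread within a species.

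Electrons enter the chain at complex I, from NADH, and at complex II, from succinate. Ubiquinone carries them to complex III, cytochrome c carries them on to complex IV, and complex IV passes them to oxygen. Complexes I, III and IV pump protons out of the mitochondrial matrix, and complex V, the ATP synthase, lets them back in to make ATP. Most subunits are encoded in the nucleus, and mitochondrial DNA encodes a small core that includes cytochrome b.

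The values are CPM, read counts scaled to a common library size, which the authors adjusted with edgeR's TMM factors. Total read estimates lay between 54508410 and 59156409 per library, and 1 CPM stood for between 52.9 and 68.0 estimated reads. A value of 0 allows a level of up to 0.0567 CPM or less, taking 3 estimated reads as the limit, and this covers counting error only. Identifiers are written here without their common prefix, and gene symbols are the standard ones for the titles. The identifiers come from separate assemblies of the 4 species, and 1 name can hold unrelated transcripts: 18 of the 41 members also carried titles of other proteins, with which their reads cannot be divided, and 23 had 1 title. In bulk muscle, fewer cells of a type and less RNA per cell cannot be told apart.

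Of the 41 identifiers, 16 were higher in Comephorus and 10 were higher in Batrachocottus, and 15 did not pass the test (limma on log2(CPM + 1), Benjamini-Hochberg adjusted p under 0.05 over all identifiers with CPM). These are 39.0% and 24.4% of the members, beside 30.1% and 24.0% of all identifiers called in the same directions, and 63.4% beside 54.0% in either direction. The values of the genera did not overlap for 35 members (85.4%), beside 84.5% of all identifiers. Both Comephorus values were above for 21 members and both Batrachocottus values for 14, beside 44.6% and 39.9% of all identifiers. The share that separated the genera was therefore near the background. The median difference, Comephorus minus Batrachocottus, was 2.65 on the log2(CPM + 1) scale for the members and 1.40 for all identifiers. Over the 18 members with several titles it was 0.04, because large differences of both signs balanced there. Their median absolute difference was 4.40. Of these 18, 6 were called in each direction (33.3% each, beside 30.1% and 24.0% of all identifiers). The log2(CPM + 1) scale understates the change of weakly expressed identifiers. All identifiers with CPM had been chosen by the authors on these same libraries. The limma adjusted p values here and below are not independent of that choice, and they order identifiers within that list only.

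The typical size of the differences changed little when 1 library was left out. With any 1 library left out, a genus had a single sample. Counts of calls from these fits are listed only among the settings of the last section, and nothing is concluded from them. The median absolute difference of the members was 4.48 with all libraries and lay between 4.28 and 4.68 with 1 left out. Over all identifiers it was 4.07, and between 4.06 and 4.26 with 1 left out. Each time 39 or more of the 41 members kept their direction.

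**Figure D1:**
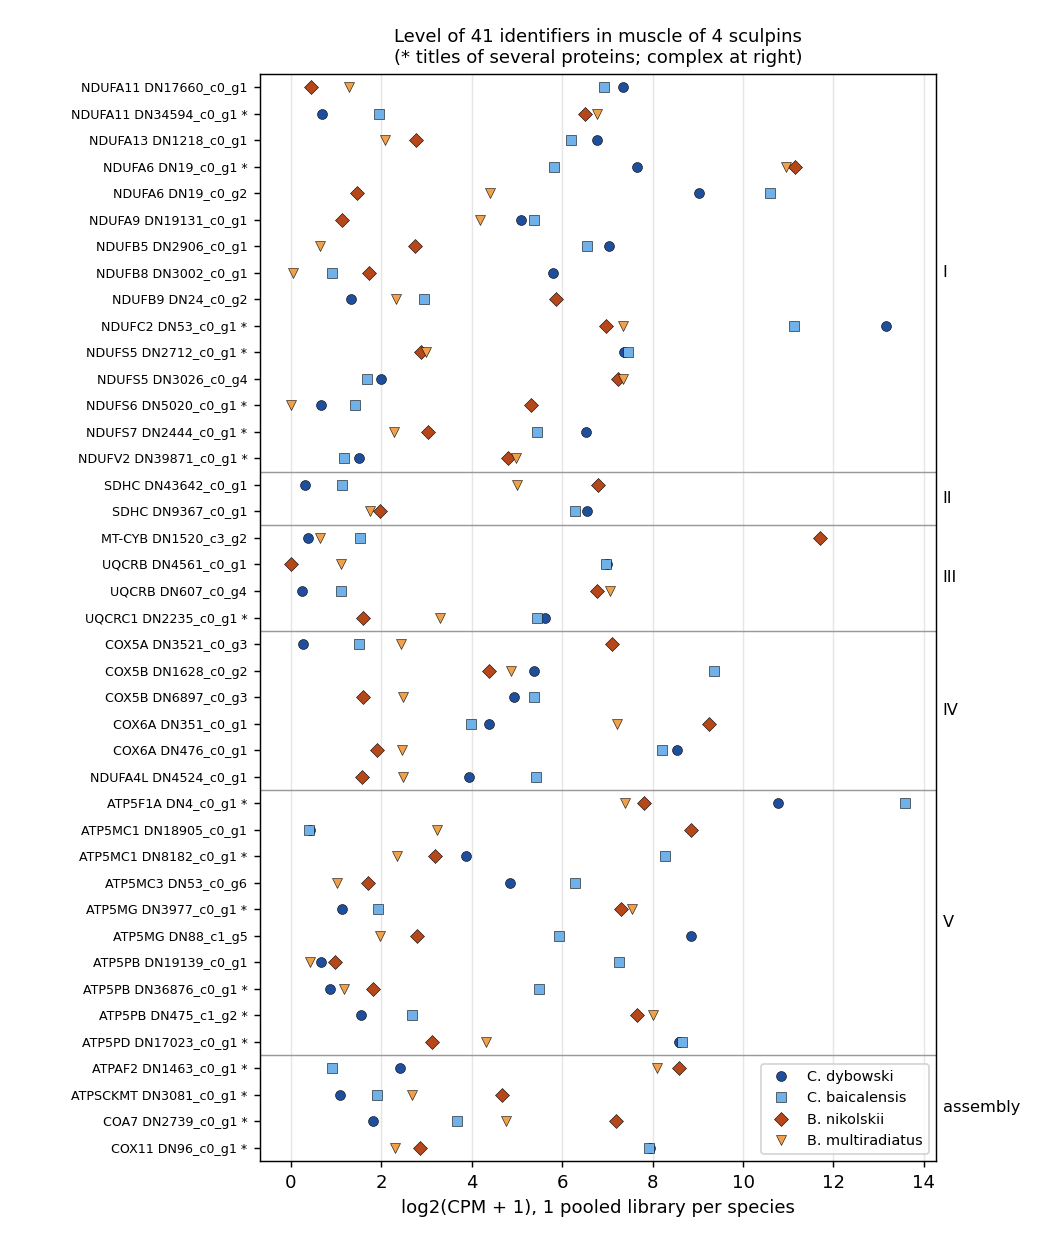
Each row is 1 of the 41 identifiers, grouped by complex, and each point is the log2(CPM + 1) value of 1 pooled library; an asterisk marks identifiers with titles of several proteins. Many rows hold the Comephorus points at one end and the Batrachocottus points at the other, in either order, and the value of MT-CYB in B. nikolskii, at 3342 CPM, stands far from the other 3 libraries.

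**Figure D2:**
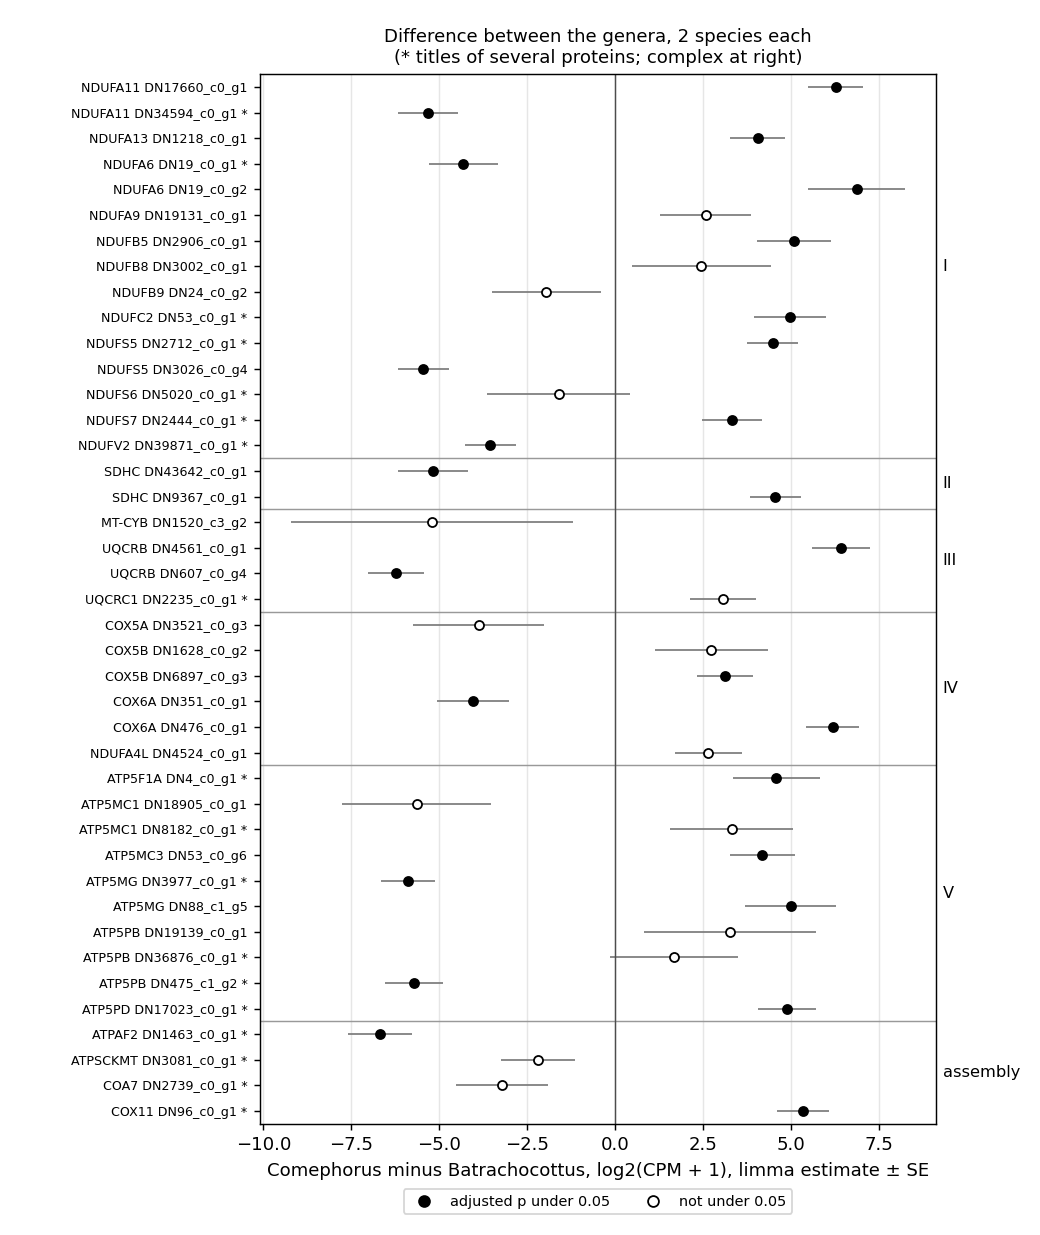
Points give the limma estimate of Comephorus minus Batrachocottus on the log2(CPM + 1) scale for each identifier, with bars of 1 SE; filled points passed an adjusted p under 0.05 (26 of 41). Estimates run from -6.68 to 6.87.

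Among the members, complex I was represented by 15 identifiers with 12 titles. 7 of them were higher in Comephorus, 4 were higher in Batrachocottus, and 4 did not pass the test. The calls are 46.7% and 26.7% of the 15, beside 30.1% and 24.0% of all identifiers. Among its core subunits, NDUFS7, which carries the last iron-sulfur cluster before ubiquinone, reached 91.5 CPM in C. dybowski and 42.4 CPM in C. baicalensis, against 7.18 CPM in B. nikolskii and 3.88 CPM in B. multiradiatus (DN2444_c0_g1, difference 3.33 ± 0.85 SE, limma adjusted p = 0.0371). NDUFV2, an iron-sulfur subunit of the module that takes up NADH, went the other way, at 1.84 CPM in C. dybowski and 1.25 CPM in C. baicalensis, against 26.7 CPM in B. nikolskii and 30.5 CPM in B. multiradiatus (DN39871_c0_g1, difference -3.55 ± 0.73 SE, limma adjusted p = 0.0235). So both core subunits separated the genera, in opposite directions. Each of these identifiers also carried a title of an unrelated protein, prolyl 4-hydroxylase subunit alpha-1b beside NDUFS7 and a receptor-associated protein beside NDUFV2.

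The accessory subunits of complex I surround this core and are needed for its assembly and stability. NDUFA13, a subunit also known as GRIM-19, had 107 CPM in C. dybowski and 71.8 CPM in C. baicalensis, against 5.77 CPM in B. nikolskii and 3.23 CPM in B. multiradiatus (difference 4.05 ± 0.78 SE, limma adjusted p = 0.0214). NDUFB5, of the membrane arm, had 131 CPM in C. dybowski and 92.6 CPM in C. baicalensis, against 5.75 CPM in B. nikolskii and 0.562 CPM in B. multiradiatus (difference 5.10 ± 1.05 SE, limma adjusted p = 0.0236). Both were single-title identifiers, and in each the lower Comephorus library was more than 10 times the higher Batrachocottus library. NDUFA9, which lies near the ubiquinone site, did not pass: its values were 33.1 CPM in C. dybowski and 40.3 CPM in C. baicalensis, against 1.18 CPM in B. nikolskii and 17.1 CPM in B. multiradiatus (limma adjusted p = 0.158).

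In NDUFB8, NDUFB9 and NDUFS6, each on a single identifier, 1 library stood above the others. NDUFB8 had 54.9 CPM in C. dybowski and 0.87 CPM in C. baicalensis, against 2.33 CPM in B. nikolskii and 0.04 CPM in B. multiradiatus. NDUFB9 had 1.51 CPM in C. dybowski and 6.71 CPM in C. baicalensis, against 57.2 CPM in B. nikolskii and 4.01 CPM in B. multiradiatus. NDUFS6, whose identifier also carried the title of a Mediator subunit, had 0.584 CPM in C. dybowski and 1.70 CPM in C. baicalensis, against 38.6 CPM in B. nikolskii and a listed 0 in B. multiradiatus. In all 3 the genera overlapped, and none passed the genus test (limma adjusted p = 0.315 for NDUFB8, 0.311 for NDUFB9 and 0.494 for NDUFS6).

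NDUFC2 had the highest complex I level in any library, but on an identifier with 4 titles. DN53_c0_g1 had 9203 CPM in C. dybowski and 2219.5 CPM in C. baicalensis, against 124 CPM in B. nikolskii and 163 CPM in B. multiradiatus (difference 4.98 ± 1.03 SE, limma adjusted p = 0.0236). Its other titles were tropomyosin alpha-1 chain, an abundant thin-filament protein of muscle, lupus La protein and METTL5, so the level cannot be assigned to NDUFC2.

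Complex II was represented by the title of SDHC, the membrane anchor that holds heme b and helps to form the ubiquinone site, on a pair of single-title identifiers. DN9367_c0_g1 had 92.8 CPM in C. dybowski and 77.4 CPM in C. baicalensis, against 2.94 CPM in B. nikolskii and 2.39 CPM in B. multiradiatus (difference 4.55 ± 0.72 SE, limma adjusted p = 0.0188). DN43642_c0_g1 had 0.251 CPM in C. dybowski and 1.18 CPM in C. baicalensis, against 110.5 CPM in B. nikolskii and 31.0 CPM in B. multiradiatus (difference -5.18 ± 1.00 SE, limma adjusted p = 0.0215). The same title was thus called in both directions.

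Complex III held the same arrangement in UQCRB, a nuclear subunit that binds ubiquinone. DN4561_c0_g1 had 126 CPM in C. dybowski and 124 CPM in C. baicalensis, against a listed 0 in B. nikolskii and 1.15 CPM in B. multiradiatus (difference 6.43 ± 0.81 SE, limma adjusted p = 0.0144). DN607_c0_g4 had 0.187 CPM in C. dybowski and 1.18 CPM in C. baicalensis, against 107 CPM in B. nikolskii and 133 CPM in B. multiradiatus (difference -6.23 ± 0.79 SE, limma adjusted p = 0.0144). Each identifier was close to absent in one genus and at a like level in both species of the other. UQCRC1, a core protein of complex III, had 48.2 CPM in C. dybowski and 42.3 CPM in C. baicalensis, against 2.05 CPM in B. nikolskii and 8.84 CPM in B. multiradiatus. It lay just beyond the threshold (difference 3.07 ± 0.94 SE, limma adjusted p = 0.0555) and passed it with a pseudocount of 10 and with a filter on low values. This identifier carried 3 titles.

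MT-CYB, the cytochrome b of complex III, was the 1 member encoded by mitochondrial DNA and was set by a single library. DN1520_c3_g2 had 0.311 CPM in C. dybowski and 1.91 CPM in C. baicalensis, against 3342 CPM in B. nikolskii and 0.572 CPM in B. multiradiatus. B. multiradiatus lay between the Comephorus species, so the genera overlapped. The genus difference of -5.21 ± 4.01 SE did not pass (limma adjusted p = 0.298), and without B. nikolskii it turned to 0.31. No other title of a protein encoded by mitochondrial DNA was among the titles read. With poly-A selected RNA, 1 library per species and 1 identifier, this value says nothing on the level of other mitochondrial transcripts.

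Complex IV was represented by 6 identifiers, all with 1 title and all for nuclear subunits. COX6A, a regulatory subunit, had 2 of them. DN476_c0_g1 had 369 CPM in C. dybowski and 294 CPM in C. baicalensis, against 2.73 CPM in B. nikolskii and 4.51 CPM in B. multiradiatus (difference 6.19 ± 0.75 SE, limma adjusted p = 0.0144). DN351_c0_g1 had 19.9 CPM in C. dybowski and 14.8 CPM in C. baicalensis, against 604 CPM in B. nikolskii and 147 CPM in B. multiradiatus (difference -4.04 ± 1.03 SE, limma adjusted p = 0.0362). As in SDHC and UQCRB, each genus had its own prominent identifier.

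COX5B, a structural subunit that binds zinc, was the 1 title whose identifiers both lay higher in Comephorus in all libraries. DN6897_c0_g3 had 29.7 CPM in C. dybowski and 40.8 CPM in C. baicalensis, against 2.01 CPM in B. nikolskii and 4.60 CPM in B. multiradiatus (difference 3.12 ± 0.80 SE, limma adjusted p = 0.0365). DN1628_c0_g2 had 40.3 CPM in C. dybowski and 659.65 CPM in C. baicalensis, against 19.9 CPM in B. nikolskii and 28.1 CPM in B. multiradiatus, and did not pass (limma adjusted p = 0.20). Here C. baicalensis alone stood high, and C. dybowski was close to the benthic species.

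COX5A, which lies beside COX5B on the matrix side, was highest in B. nikolskii. Its values were 0.212 CPM in C. dybowski and 1.83 CPM in C. baicalensis, against 136 CPM in B. nikolskii and 4.41 CPM in B. multiradiatus (difference -3.88 ± 1.86 SE, limma adjusted p = 0.143). NDUFA4L, a relative of the complex IV subunit NDUFA4, had 14.4 CPM in C. dybowski and 41.7 CPM in C. baicalensis, against 1.97 CPM in B. nikolskii and 4.58 CPM in B. multiradiatus (difference 2.65 ± 0.94 SE, limma adjusted p = 0.0799). The genera did not overlap for either, and neither passed the test.

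Complex V had 10 identifiers with 6 titles: 4 were higher in Comephorus, 2 were higher in Batrachocottus, and 4 did not pass. ATP5F1A, the alpha subunit of the catalytic head, was on an identifier (DN4_c0_g1) that had the highest level of any member. It had 1757 CPM in C. dybowski and 12303 CPM in C. baicalensis, against 225 CPM in B. nikolskii and 166 CPM in B. multiradiatus (difference 4.58 ± 1.24 SE, limma adjusted p = 0.0412). The same identifier carried a parvalbumin beta title, the title of an abundant calcium-binding protein of fish muscle, so these values cannot be assigned to the ATP synthase. No member carried a title of the beta subunit of the catalytic head, and the name ATP5F1B could not be tied to a member by title.

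The c subunits form the rotating ring of the ATP synthase. ATP5MC3 had 27.6 CPM in C. dybowski and 76.9 CPM in C. baicalensis, against 2.28 CPM in B. nikolskii and 1.03 CPM in B. multiradiatus (difference 4.19 ± 0.91 SE, limma adjusted p = 0.0261). For ATP5MC1, DN8182_c0_g1 had 13.8 CPM in C. dybowski and 310.3 CPM in C. baicalensis, against 8.06 CPM in B. nikolskii and 4.13 CPM in B. multiradiatus (limma adjusted p = 0.170). The second ATP5MC1 identifier, DN18905_c0_g1, had 0.339 CPM in C. dybowski and 0.314 CPM in C. baicalensis, against 460.4 CPM in B. nikolskii and 8.47 CPM in B. multiradiatus (limma adjusted p = 0.0888). ATP5MC3 was thus high in both pelagic species, while each ATP5MC1 identifier was prominent in 1 species of 1 genus.

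Subunit g (ATP5MG) sits in the membrane part and helps ATP synthases to pair. DN88_c1_g5 had 459 CPM in C. dybowski and 59.8 CPM in C. baicalensis, against 5.92 CPM in B. nikolskii and 2.94 CPM in B. multiradiatus (difference 5.00 ± 1.29 SE, limma adjusted p = 0.0376). DN3977_c0_g1 had 1.18 CPM in C. dybowski and 2.83 CPM in C. baicalensis, against 157 CPM in B. nikolskii and 184 CPM in B. multiradiatus (difference -5.89 ± 0.77 SE, limma adjusted p = 0.0155). Both differences exceeded the spread within a genus, in opposite directions, and with a pseudocount of 10 the call of DN88_c1_g5 was lost.

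The peripheral stalk holds the catalytic head still while the ring turns. ATP5PD, the d subunit of this stalk, had 382 CPM in C. dybowski and 399.9 CPM in C. baicalensis, against 7.71 CPM in B. nikolskii and 18.9 CPM in B. multiradiatus (difference 4.90 ± 0.83 SE, limma adjusted p = 0.0198). ATP5PB, the b subunit, had 3 identifiers. DN475_c1_g2 had 1.92 CPM in C. dybowski and 5.44 CPM in C. baicalensis, against 199 CPM in B. nikolskii and 257 CPM in B. multiradiatus (difference -5.71 ± 0.83 SE, limma adjusted p = 0.0180). The other ATP5PB identifiers were high only in C. baicalensis among the 4 libraries. DN19139_c0_g1 had 0.595 CPM in C. dybowski and 152 CPM in C. baicalensis, against 0.960 CPM in B. nikolskii and 0.334 CPM in B. multiradiatus. DN36876_c0_g1 had 0.823 CPM in C. dybowski and 44.1 CPM in C. baicalensis, against 2.55 CPM in B. nikolskii and 1.26 CPM in B. multiradiatus. Neither passed the genus test (limma adjusted p = 0.288 and 0.430), and without C. baicalensis their differences turned to -0.020 and -0.64.

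All 4 identifiers of proteins that assemble or modify the complexes carried several titles. COX11, which delivers copper to complex IV, had 246 CPM in C. dybowski and 242 CPM in C. baicalensis, against 6.24 CPM in B. nikolskii and 3.97 CPM in B. multiradiatus (difference 5.35 ± 0.74 SE, limma adjusted p = 0.0162), on an identifier that also carried the title of ribosomal protein S8. ATPAF2, a chaperone for the alpha subunit of ATP synthase, had 4.30 CPM in C. dybowski and 0.878 CPM in C. baicalensis, against 381 CPM in B. nikolskii and 273 CPM in B. multiradiatus (difference -6.68 ± 0.91 SE, limma adjusted p = 0.0158), on an identifier shared with ADP/ATP translocase 2. COA7, an assembly factor of complex IV, had 2.53 CPM in C. dybowski and 11.8 CPM in C. baicalensis, against 145 CPM in B. nikolskii and 26.0 CPM in B. multiradiatus. ATPSCKMT, which methylates the c subunit, had 1.13 CPM in C. dybowski and 2.73 CPM in C. baicalensis, against 24.6 CPM in B. nikolskii and 5.46 CPM in B. multiradiatus. Both were highest in B. nikolskii, and neither passed (limma adjusted p = 0.103 for COA7 and 0.143 for ATPSCKMT).

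The most regular feature of the members was the exchange of identifiers between the genera under the same title. 10 titles were held by more than 1 member, 21 identifiers in all, and in 8 of the 10 titles (80.0%) 1 identifier was above in both Comephorus species and another in both Batrachocottus species. Among the 162 other protein titles held by several identifiers, 90 (55.6%) did so, so the exchange was common across these tables. No test was made of that difference in share. For a single identifier, a different level in the genera and reads taken up by another copy of the same transcript cannot be told apart.

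Summing the identifiers of a title removed most of the difference between the genera. NDUFS5, an accessory subunit of complex I, shows this most evenly, although DN2712_c0_g1 also carried titles of a helicase (DDX54) and a ubiquitin-activating enzyme, whose reads its level includes. DN2712_c0_g1 had 163 CPM in C. dybowski and 175 CPM in C. baicalensis, against 6.35 CPM in B. nikolskii and 6.92 CPM in B. multiradiatus (difference 4.48 ± 0.72 SE, limma adjusted p = 0.0188). DN3026_c0_g4 had 2.99 CPM in C. dybowski and 2.20 CPM in C. baicalensis, against 149.95 CPM in B. nikolskii and 161 CPM in B. multiradiatus (difference -5.45 ± 0.72 SE, limma adjusted p = 0.0155). Their sums were 166 CPM in C. dybowski and 177 CPM in C. baicalensis, against 156 CPM in B. nikolskii and 168 CPM in B. multiradiatus, and the highest library was 1.13 times the lowest. The difference of the sums was 0.08 ± 0.72 SE (limma adjusted p = 0.924).

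UQCRB behaved alike, with sums of 126 CPM in C. dybowski and 125 CPM in C. baicalensis, against 107 CPM in B. nikolskii and 134 CPM in B. multiradiatus (difference 0.07 ± 0.72 SE). For NDUFA11, a membrane-arm subunit of complex I, DN17660_c0_g1 had 162 CPM in C. dybowski and 122 CPM in C. baicalensis, against 0.364 CPM in B. nikolskii and 1.44 CPM in B. multiradiatus (limma adjusted p = 0.0144). Its partner DN34594_c0_g1 had 0.615 CPM in C. dybowski and 2.90 CPM in C. baicalensis, against 90.5 CPM in B. nikolskii and 109 CPM in B. multiradiatus (limma adjusted p = 0.0188). This partner also carried the title of a Rac exchanger protein. The NDUFA11 sums lay between 90.9 CPM, in B. nikolskii, and 162 CPM, in C. dybowski, and the genus difference of 6.27 on one identifier and -5.32 on the other became 0.50 ± 0.73 SE on the sum.

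NDUFA6, a matrix-arm subunit of complex I, showed the same exchange. DN19_c0_g2 had 518 CPM in C. dybowski and 1554 CPM in C. baicalensis, against 1.77 CPM in B. nikolskii and 20.2 CPM in B. multiradiatus (difference 6.87 ± 1.38 SE, limma adjusted p = 0.0228). DN19_c0_g1 had 202 CPM in C. dybowski and 55.1 CPM in C. baicalensis, against 2275 CPM in B. nikolskii and 1988 CPM in B. multiradiatus (difference -4.32 ± 0.97 SE, limma adjusted p = 0.0285), and it also carried 4 other titles, ribosomal protein S3a among them. The sums ran lower in Comephorus, at 719.7 CPM in C. dybowski and 1609 CPM in C. baicalensis, against 2276 CPM in B. nikolskii and 2008 CPM in B. multiradiatus, and did not pass the test (difference -0.99 ± 0.83 SE, limma adjusted p = 0.334).

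Over the 21 identifiers of these titles the median absolute difference between the genera was 5.18 on the log2(CPM + 1) scale, and over the 10 sums it was 0.34. Over all 172 titles held by several identifiers these medians were 4.31 for the identifiers and 2.02 for the sums. Of the 10 sums, 8 lay within 1 on this scale, 6 had overlapping genera, and 0 were called by limma in either direction, with 0 at an unadjusted p under 0.05. Over all 172 titles, 37.2% of the sums lay within 1 and 30.2% overlapped, described here with no test, and calls were not computed for the sums of other titles. COX5B kept its direction in the sums, at 69.9 CPM in C. dybowski and 700.4 CPM in C. baicalensis, against 21.9 CPM in B. nikolskii and 32.7 CPM in B. multiradiatus (difference 3.00 ± 1.39 SE, limma adjusted p = 0.138). ATP5PB differed by species: its sum was 3.34 CPM in C. dybowski, and 202 CPM in C. baicalensis, 203 CPM in B. nikolskii and 258 CPM in B. multiradiatus. ATP5MC1 was low in 1 species of each genus, with sums of 14.1 CPM in C. dybowski and 311 CPM in C. baicalensis, against 468 CPM in B. nikolskii and 12.6 CPM in B. multiradiatus. A sum holds only identifiers with a title that was read, so a low sum may lack a partner without one. The sums of NDUFA6, NDUFA11, NDUFS5, ATP5MC1, ATP5MG and ATP5PB include reads of identifiers that also carried titles of other proteins. Those of UQCRB, SDHC, COX5B and COX6A do not.

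**Figure D3:**
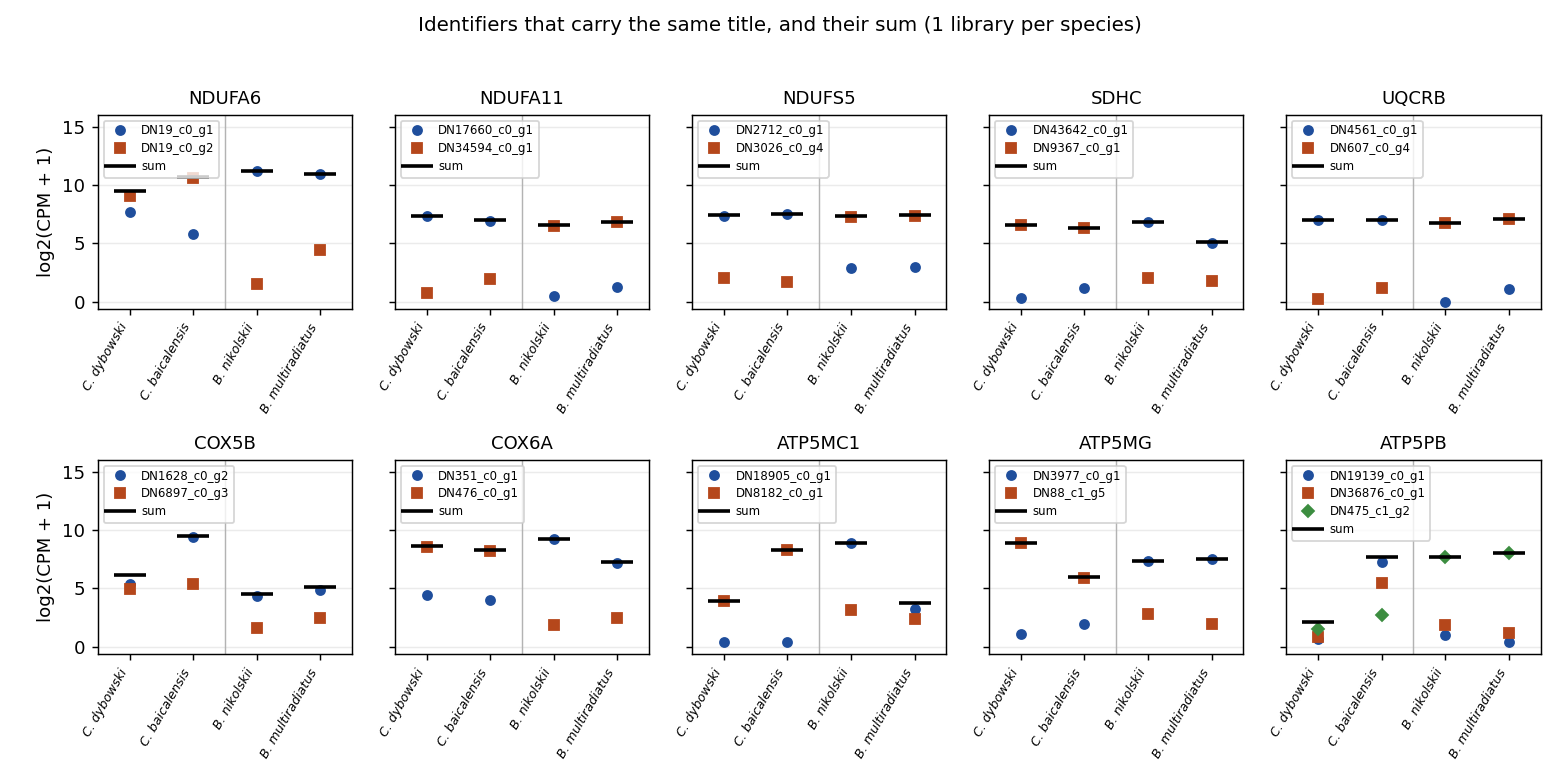
Each panel is 1 protein title held by several identifiers; points are the log2(CPM + 1) values of the identifiers in the 4 libraries, black bars are the values of their summed CPM, and the grey line divides Comephorus (left) from Batrachocottus. In NDUFS5 and UQCRB the bars stay level while the points change places, and in ATP5PB the bar of C. dybowski, at a sum of 3.34 CPM, lies far below the other 3.

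With every title counted once there were 30 titles. Of these, limma called 8 higher in Comephorus and 2 lower, beside 30.1% and 24.0% of all identifiers taken singly. All 10 were titles held by 1 identifier. The 8 were NDUFA13, NDUFB5, NDUFC2, NDUFS7, ATP5F1A, ATP5MC3, ATP5PD and COX11, of which NDUFA13, NDUFB5 and ATP5MC3 had no other title. The 2 were NDUFV2 and ATPAF2, both with titles of other proteins. For these titles no partner was among the titles read, and 127 title rows were not analysed here, so whether they too exchange identifiers was not tested.

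The summed level of each complex did not give 1 order of the species. For complex I the 15 identifiers summed to 10673 CPM in C. dybowski and 4388 CPM in C. baicalensis, against 2793 CPM in B. nikolskii and 2508 CPM in B. multiradiatus. For complex V the 10 identifiers summed to 2644 CPM in C. dybowski and 13354 CPM in C. baicalensis, against 1069 CPM in B. nikolskii and 644 CPM in B. multiradiatus. Both pelagic sums were above both benthic sums in these 2 of the 5 complexes, and both rested on identifiers shared with tropomyosin and parvalbumin. Without DN53_c0_g1, complex I summed to 1470.1 CPM in C. dybowski and 2169 CPM in C. baicalensis, against 2668 CPM in B. nikolskii and 2345 CPM in B. multiradiatus, the opposite order. That order in turn rested on NDUFA6 DN19_c0_g1, at 2275 CPM in B. nikolskii and 1988 CPM in B. multiradiatus. This identifier also carried titles of other proteins, ribosomal protein S3a among them, so neither order can be assigned to complex I. Without DN4_c0_g1, complex V summed to 887 CPM in C. dybowski and 1052 CPM in C. baicalensis, against 844 CPM in B. nikolskii and 478 CPM in B. multiradiatus. The order of complex V held, at a much smaller distance.

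Restricted to identifiers with 1 title, the complex I sums were 1010.3 CPM in C. dybowski and 1890.1 CPM in C. baicalensis, against 224 CPM in B. nikolskii and 208 CPM in B. multiradiatus, while those of complex V overlapped. These complex I sums lean on DN19_c0_g2, whose benthic partner is left out because it carries several titles. Complex III summed to 175 CPM in C. dybowski and 169.5 CPM in C. baicalensis, against 3451 CPM in B. nikolskii and 143 CPM in B. multiradiatus, and the B. nikolskii value was almost all MT-CYB. Without MT-CYB, complex III summed to 174 CPM in C. dybowski and 168 CPM in C. baicalensis, against 109 CPM in B. nikolskii and 143 CPM in B. multiradiatus. Complexes II and IV overlapped between the genera, with the lowest value of each in B. multiradiatus, at 33.4 and 193 CPM. Without its most abundant identifier, COX6A DN351_c0_g1, complex IV summed to 453 CPM in C. dybowski and 1038 CPM in C. baicalensis, against 163 CPM in B. nikolskii and 46.2 CPM in B. multiradiatus.

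**Figure D4:**
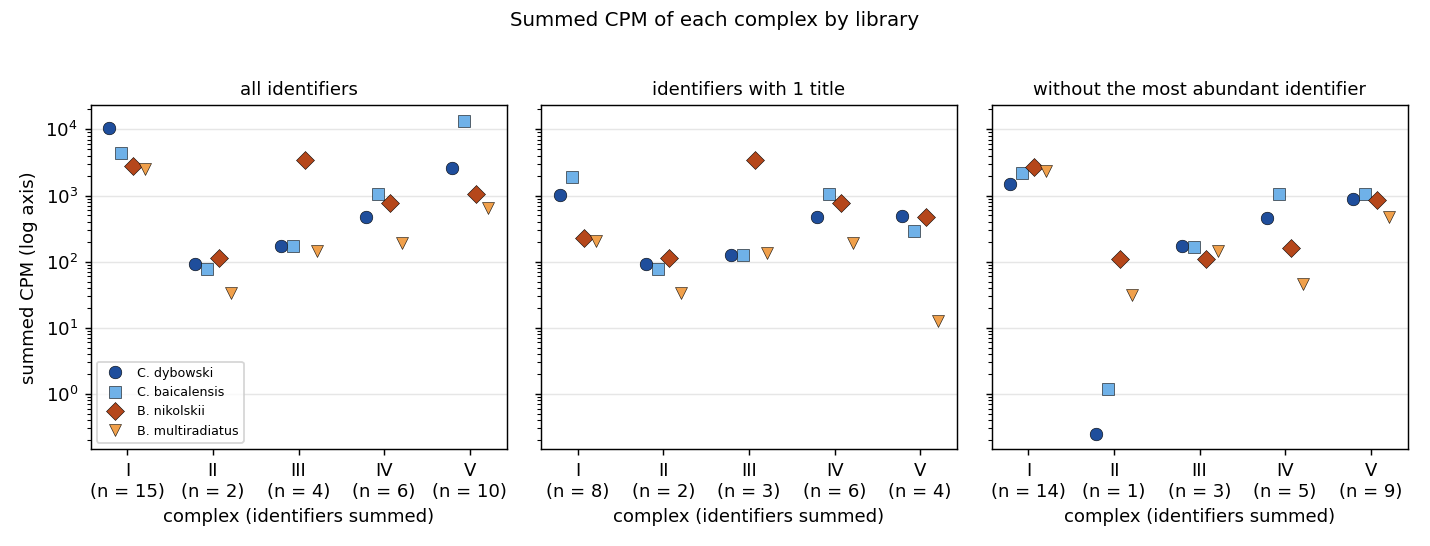
Points give the summed CPM of the identifiers of each complex in each library on a log axis, for all identifiers, for identifiers with 1 title and without the most abundant identifier of each complex. The order of the genera changes between panels for complex I, where C. dybowski stands at 10673 CPM with all identifiers and at 1470.1 CPM without the most abundant one.

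Within a genus there was 1 library per species, so differences are described and not tested. Between the pelagic species, 8 members (19.5%) were at least 4-fold apart on the log2(CPM + 1) scale, beside 26.5% of all identifiers. 3 were higher in C. dybowski, beside 12.4% of all identifiers: NDUFB8 (4.90), ATP5MG DN88_c1_g5 (2.92) and NDUFC2 (2.05), as differences in log2(CPM + 1). The 5 higher in C. baicalensis, beside 14.1% of all identifiers, were ATP5PB DN19139_c0_g1 (-6.59), ATP5PB DN36876_c0_g1 (-4.63), ATP5MC1 DN8182_c0_g1 (-4.40), COX5B DN1628_c0_g2 (-4.00) and ATP5F1A (-2.81). Of these 5, 4 carried an ATP synthase title, 3 of them beside titles of other proteins, and ATP5MG of the same complex lay the other way.

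Between the benthic species, 10 members (24.4%) were at least 4-fold apart, beside 30.2% of all identifiers. 8 were higher in B. nikolskii, among them MT-CYB (11.05), ATP5MC1 DN18905_c0_g1 (5.61), NDUFS6 (5.31), COX5A (4.66) and NDUFB9 (3.54), and the other 3 were COA7 (2.43), NDUFB5 (2.11) and COX6A DN351_c0_g1 (2.04). The 2 higher in B. multiradiatus were NDUFA9 (-3.05) and NDUFA6 DN19_c0_g2 (-2.94). MT-CYB, ATP5MC1 DN18905_c0_g1, NDUFS6, COX5A and NDUFB9, from complexes I, III, IV and V, were highest in B. nikolskii of all libraries. NDUFB5 was highest in C. dybowski, at 131 CPM, and COX6A DN351_c0_g1 also reached 147 CPM in B. multiradiatus. Over all identifiers, 17.0% passed this fold with B. nikolskii above and 13.1% with B. multiradiatus above. No member was at least 4-fold apart in both genera.

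**Figure D5:**
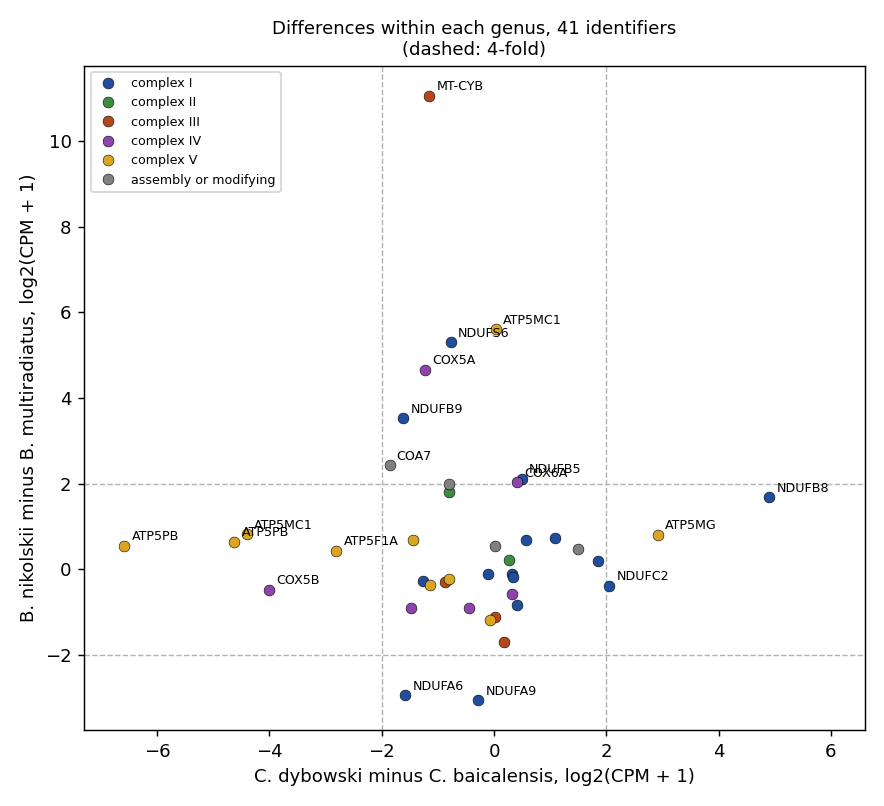
Each point is 1 of the 41 identifiers, with C. dybowski minus C. baicalensis on the horizontal axis and B. nikolskii minus B. multiradiatus on the vertical axis, both in log2(CPM + 1); dashed lines mark 4-fold. Points past a line lie along the axes, with MT-CYB at 11.05 at the top, and the corners beyond both lines are empty.

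Read estimates were deposited for a wider set of identifiers, 4755 of which were listed for both genera, and 26 of the 41 members were among them. On these counts edgeR's quasi-likelihood test called 15 of the 26, with 9 above in Comephorus and 6 above in Batrachocottus, beside 9.21% of the 4755 in either direction (5.01% and 4.21%). Members had been listed because they differed, so this share is not a result about them. Of the 537 identifiers with CPM among the 4755, edgeR called 249, with 147 above in Comephorus and 102 above in Batrachocottus. The 15 other members were listed for 1 genus (4 for Comephorus and 7 for Batrachocottus) or for neither (4). COX11 (log2 fold change 5.63, edgeR adjusted p = 0.0177) and NDUFS5 DN3026_c0_g4 (-5.90, edgeR adjusted p = 0.0177) had the lowest adjusted p of each direction, not the largest fold. NDUFA6 DN19_c0_g2, ATP5F1A and COX5B DN6897_c0_g3 were called on CPM but not by edgeR on counts (edgeR adjusted p = 0.0709, 0.0605 and 0.0544). DESeq2 on the same counts called all 3 and 25 of the 26 members, 16 above in Comephorus and 9 above in Batrachocottus. It called 38.0% of the 4755, most of which had not been listed as different, and its calls among the 537 were not counted.

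Other proteins of oxidative phosphorylation, taken from a list of titles, gave 14 further identifiers. 3 of them were higher in Comephorus, 4 were higher in Batrachocottus, and 7 did not pass, beside 30.1% and 24.0% of all identifiers called in these directions. ATPase inhibitor A, a relative of the inhibitor that stops the ATP synthase from running backwards, had 23.1 CPM in C. dybowski and 29.8 CPM in C. baicalensis, against 0.846 CPM in B. nikolskii and a listed 0 in B. multiradiatus (difference 4.33 ± 0.79 SE, limma adjusted p = 0.0203). ADP/ATP translocase 2, which exchanges ADP and ATP across the inner membrane, had 0.167 CPM in C. dybowski and 1.90 CPM in C. baicalensis, against 92.6 CPM in B. nikolskii and 109 CPM in B. multiradiatus (DN4442_c1_g1, difference -5.79 ± 0.86 SE, limma adjusted p = 0.0186). Both are single-title identifiers, and they lay in opposite directions. The 14 include a complex I subunit, NADH:ubiquinone oxidoreductase subunit AB1b, whose wording kept it out of the complex I counts and sums. Its identifiers DN919_c0_g1 and DN2128_c0_g2 were higher in Comephorus (limma adjusted p = 0.0314 and 0.0382). DN2196_c0_g2 lay above in Batrachocottus and did not pass (limma adjusted p = 0.0555). DN919_c0_g1 and DN2196_c0_g2 also carried titles of other proteins.

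The list of matrix enzymes that make NADH gave 7 identifiers. Of these, 2 were higher in each genus, beside 30.1% (Comephorus) and 24.0% (Batrachocottus) of all identifiers. Subunit beta of the pyruvate dehydrogenase E1 component, which feeds carbon into the citric acid cycle, was on a pair of identifiers. DN24278_c0_g1 had 3.80 CPM in C. dybowski and 24.5 CPM in C. baicalensis, against 1.06 CPM in B. nikolskii and 1.40 CPM in B. multiradiatus (limma adjusted p = 0.145). DN38048_c0_g1 had 1.05 CPM in C. dybowski and 0.819 CPM in C. baicalensis, against 17.6 CPM in B. nikolskii and 30.6 CPM in B. multiradiatus (limma adjusted p = 0.0242). The pair lay in opposite directions, as in the exchanged respiratory titles, but DN24278_c0_g1 was prominent in C. baicalensis only. DN38048_c0_g1 also carried the title of microtubule-associated protein tau.

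Muscle markers were abundant, as the tissue label states: 41 other identifiers with titles of skeletal muscle proteins (parvalbumins, troponins and the like) summed to between 120330 and 218080 CPM per library. Among markers of other cells, hemoglobin was higher in Comephorus as a sum, but not in every identifier. The 9 hemoglobin identifiers of red blood cells summed to 3382 CPM in C. dybowski and 3131 CPM in C. baicalensis, against 1096 CPM in B. nikolskii and 734 CPM in B. multiradiatus. Limma called 5 of the 9 higher in Comephorus and 1 higher in Batrachocottus, beside 30.1% and 24.0% of all identifiers, and 4 had 1 title. The 1 called higher in Batrachocottus was an alpha subunit identifier, DN163_c0_g1 (limma adjusted p = 0.0221). It had 7.68 CPM in C. dybowski and 4.22 CPM in C. baicalensis, against 107 CPM in B. nikolskii and 332 CPM in B. multiradiatus. The beta subunit identifier, DN491_c0_g1, also went against the sum but did not pass (limma adjusted p = 0.0532). Its values were 13.5 CPM in C. dybowski and 64.9 CPM in C. baicalensis, against 357 CPM in B. nikolskii and 351 CPM in B. multiradiatus. Both identifiers also carried titles of other proteins. Titles of slow fibres, which are rich in mitochondria, lay in opposite directions, and each of their identifiers also carried a title of another protein. Troponin I of slow muscle was on 2 identifiers that summed to 22.0 CPM in C. dybowski and 16.4 CPM in C. baicalensis, against 314 CPM in B. nikolskii and 125 CPM in B. multiradiatus. Neither identifier passed the genus test (limma adjusted p = 0.0519 for DN2629_c0_g1 and 0.0656 for DN116_c0_g1). Troponin C type 1b (slow), outside the slow-fibre list and named after its values were seen, had 2336 CPM in C. dybowski and 2093 CPM in C. baicalensis, against 5.12 CPM in B. nikolskii and 6.48 CPM in B. multiradiatus (DN131_c0_g2, difference 8.35 ± 0.72 SE, limma adjusted p = 0.0126). No identifier carried a myoglobin title. Yolk and egg coat titles were on 3 identifiers, each of which also carried a title of another protein. They summed to 9.32 CPM in C. dybowski and 3.94 CPM in C. baicalensis, against 1496 CPM in B. nikolskii and 2.73 CPM in B. multiradiatus. Of the B. nikolskii sum, 1356 CPM lay on the vitellogenin-2 identifier (DN847_c0_g1). B. nikolskii was also the library in which MT-CYB stood alone. The 7 keratin identifiers summed to 183 CPM in C. dybowski and 589 CPM in C. baicalensis. Their sums were 29.0 CPM in B. nikolskii and 894 CPM in B. multiradiatus, where DN9_c0_g8 alone held 634.9 CPM. Limma called 2 of the 7 higher in Comephorus and 0 higher in Batrachocottus, beside 30.1% and 24.0% of all identifiers. The 1 perilipin identifier overlapped between the genera. The part of these cells in the differences between respiratory identifiers was not tested.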

How the data were processed

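Muscle RNA of 4 species was sequenced as 1 pooled library each. The authors trimmed reads with Trimmomatic 0.36, built a Trinity assembly per species, merged these with CD-HIT clustering and quantified reads against them with Salmon, without a genome. The deposited CPM values were made by the authors with edgeR 4.0.3 (TMM-adjusted library sizes) for the 792 identifiers called different in at least 1 species pair. The deposited counts are Salmon's estimated counts, rounded by the authors, and list an identifier by genus. Read estimates recovered from the CPM were whole (within 0.1) for between 19.4% and 25.4% of values below 20 CPM, so they are not whole reads, and a count test on them is an alternative only. Columns of the authors' own comparisons were not used.

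Titles came from the BLAST report supplied with the study, of which 1325 rows were read and 127 were not; 657 of the 792 identifiers had a title. The main test was limma 3.58.1 (R 4.3.3) on log2(CPM + 1) over all 792 identifiers, Comephorus minus Batrachocottus, with Benjamini-Hochberg adjustment. edgeR 4.0.16 and DESeq2 1.42.0 served on rounded counts. Fits were tested on simulated data with 1 dispersion, 0.2911, for all identifiers. There limma recovered 23% of 4-fold and 99.5% of 16-fold changes, and edgeR on counts 6.5% and 94.5%. A test not passed is therefore no evidence of equal levels. All members could be named. Values per library were given for single-title identifiers, for titles held by several members and for MT-CYB, COX5A and NDUFA4L, which the study names. ATP5F1B and COX6C, also named there, were tied to no member by title. Members, lists and tests were chosen with earlier results of these data known. Alternatives were other pseudocounts (0.1 and 10), a filter of 5 CPM in 2 libraries, both count tools, sums by title, identifiers with 1 title, an exact test with an assumed dispersion of 0.2, and leaving out each library.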

Additional observations from a re-analysis of the deposited data

How the results depend on the processing

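Pseudocounts, the filter on low values and identifiers with 1 title turned the direction of no member. The count of members called higher in Comephorus (16) was 3 with edgeR on read estimates of the CPM, 9 with edgeR on the deposited counts, where 26 members could be tested, 8 with titles summed and 10 among identifiers with 1 title. The count higher in Batrachocottus (10) was 6, 6, 2 and 4 under these settings and 17 with DESeq2 on read estimates. Leaving out 1 library gave 0 to 11 members higher in Comephorus and 0 to 10 higher in Batrachocottus. The median difference of the members (2.65) was 1.43 with a pseudocount of 10 and 0.33 with titles summed, and 1.11 to 2.98 when 1 library was left out. With 1 library left out, MT-CYB ranged from -10.74 to 0.31 and NDUFS6 from -4.26 to 1.05, turning without B. nikolskii, and ATP5PB DN19139_c0_g1 ranged from -0.020 to 6.57 and DN36876_c0_g1 from -0.64 to 3.99, turning without C. baicalensis. Members at least 4-fold apart between the Comephorus species (8) numbered 15 with a pseudocount of 0.1, 5 after the filter and 4 among identifiers with 1 title. Members at least 4-fold apart between the Batrachocottus species (10) numbered 6 with a pseudocount of 10. An exact test with an assumed dispersion of 0.2, a stricter measure at an adjusted p under 0.001, could be run on fewer members. It called 0 of 30 between the Comephorus species and 1 of 33 between the Batrachocottus species. Shares over all identifiers are not given for the settings in this paragraph, apart from edgeR on the deposited counts, above. These counts therefore describe the settings and are no result about the members. Complexes with both pelagic sums above both benthic sums (2) numbered 1 among identifiers with 1 title and 3 (III, IV and V) without the most abundant member of each. For IV, that removal took out the benthic COX6A identifier and kept its pelagic partner. Apart from settings that test fewer features or samples, the cause of these changes was not tested. With 1 pooled library per species, depth limits only values near 0. No paired analysis was possible because the labels give no replicate number that links species of different genera.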
